A study of Mus musculus with 6 samples.

Results

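The genes described here are 8 estrogen receptor and aryl hydrocarbon receptor (AhR) response genes, Esr1, Pgr, Greb1, Ahr, Ahrr, Cyp1b1, Cyp1a1 and Tiparp. They were taken by symbol from the RefSeq accessions of the array's probes, as genes on which the drug tamoxifen could act directly, and the rule uses no measured value. All 8 had at least 1 probe, with 16 of the 56605 non-control probes among them. Of these genes, 6 could be tested, among 23058 genes in all. Pgr and Cyp1a1 could not, because none of their probes was well above background on any array.

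RNA came from cultured fibroblasts of skinned and minced tails of C57BL/6 mice, and the labels give every sample the floxed LH2 allele (LH2F/F), the CAG-Cre transgene and the genotype LH2 cKO. LH2, the product of Plod2, is a lysyl hydroxylase of collagen telopeptides. The no.1 cells (2 arrays) had tamoxifen for 24 h and were in tamoxifen (+) medium, the no.2 cells (2 arrays) had tamoxifen for 24 h and were in tamoxifen (-) medium, and the control cells (2 arrays) were in tamoxifen (-) medium throughout, as far as the labels say. The series' design text sets no.1 against no.2. The CAG promoter is active in most cell types, and the labels do not say which form of Cre it drives or how much tamoxifen was given. Control cells carried the same alleles as the others, and no group had tamoxifen with an intact gene, so tamoxifen and loss of LH2 cannot be told apart in either comparison with control. The names of the files carry 0 h for the control arrays and, in both other groups, 24 h for replicate 1 and 48 h for replicate 2, which the labels do not mention, so time cannot be told apart from these either. Whether replicate arrays hold RNA of different cultures or mice is not in the labels, so the p-values measure the spread between these arrays, which may be technical.

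Estrogen receptor alpha, the product of Esr1, is a nuclear receptor that binds estrogen response elements in DNA, and Pgr and Greb1 are classical genes that it induces in uterus and mammary cells. Tamoxifen and its metabolites bind this receptor, as antagonists in breast and partial agonists in some other tissues. AhR waits in the cytosol with Hsp90 and Ptges3; when a ligand binds, it enters the nucleus, pairs with Arnt and binds xenobiotic response elements. Cyp1a1 and Cyp1b1, which encode oxidases of aromatic compounds and steroids, are its best known targets. Tiparp, a mono-ADP-ribosyltransferase, and Ahrr, a repressor that competes for Arnt, are targets as well and limit the response.

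Promoter windows of 300 bases, from 250 before to 50 after the annotated start, were read from RefSeq's GRCm38.p6 table for 7 of the 8 genes, in 9 windows. The 4 windows shown belong to the AhR targets Cyp1b1, Tiparp, Cyp1a1 and Ahrr, and a link between their motifs and the measured levels was not tested. Capitals mark the core of the xenobiotic response element, GCGTG, or CACGC where it lies on the other strand; each line runs 5′ to 3′ along the gene.
Cyp1b1 (chr17:79715012-79715311, minus strand): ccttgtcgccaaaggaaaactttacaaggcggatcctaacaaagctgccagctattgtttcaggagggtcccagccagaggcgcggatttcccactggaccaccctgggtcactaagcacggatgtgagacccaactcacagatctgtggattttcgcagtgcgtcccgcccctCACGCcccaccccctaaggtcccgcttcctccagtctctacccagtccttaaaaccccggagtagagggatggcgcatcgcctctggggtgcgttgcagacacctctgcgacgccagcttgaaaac
Tiparp (chr3:65528197-65528496, plus strand): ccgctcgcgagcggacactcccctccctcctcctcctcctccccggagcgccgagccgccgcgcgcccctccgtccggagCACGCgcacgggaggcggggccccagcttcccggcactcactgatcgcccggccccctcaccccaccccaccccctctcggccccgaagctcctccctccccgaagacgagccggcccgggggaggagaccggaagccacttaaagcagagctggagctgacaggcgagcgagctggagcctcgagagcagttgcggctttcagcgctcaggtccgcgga
Cyp1a1 (chr9:57697363-57697662, plus strand): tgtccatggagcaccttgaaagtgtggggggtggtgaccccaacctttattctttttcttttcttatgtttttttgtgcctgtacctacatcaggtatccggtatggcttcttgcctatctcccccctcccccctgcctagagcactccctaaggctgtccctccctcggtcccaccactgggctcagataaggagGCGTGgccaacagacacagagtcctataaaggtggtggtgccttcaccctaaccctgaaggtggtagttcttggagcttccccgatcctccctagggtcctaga
Ahrr (chr13:74292282-74292581, minus strand): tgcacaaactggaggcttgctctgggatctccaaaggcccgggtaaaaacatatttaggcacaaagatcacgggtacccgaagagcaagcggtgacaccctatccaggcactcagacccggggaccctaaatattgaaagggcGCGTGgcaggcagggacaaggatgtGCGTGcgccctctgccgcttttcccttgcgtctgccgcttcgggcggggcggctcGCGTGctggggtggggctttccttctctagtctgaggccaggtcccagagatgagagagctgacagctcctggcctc
The core stood 1 time in the windows of Cyp1b1, Tiparp and Cyp1a1 and 3 times in that of Ahrr. Its first base lay at -76 in Cyp1b1 and at -170 in Tiparp, both on the strand opposite to the gene, at -54 in Cyp1a1, and at -107, -82 and -27 in Ahrr, counted from the start. Of 32851 windows in the table, 32.4% held at least 1 core and 3.91% held at least 3. The full estrogen response element, which is GGTCA, any 3 bases (NNN) and TGACC and reads the same on both strands, stood in 23 of these windows (0.07%) and in 0 of the 9 windows of these genes. Its single site, GGTCA or TGACC, stood at least 1 time in 40.5% of all windows and at least 2 times in 10.8%. Of the 2 windows of Greb1, 1 held 2 of these sites and the other held 1, and 1 site stood in each of the windows of Cyp1a1 and Cyp1b1 and in 1 of the 2 windows of Esr1. These counts describe letters in short windows, and binding was not measured.

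Levels are log2 of the scanner's processed signal minus the 75th percentile of each array's non-control probes. Without this scaling the arrays differed: the 75th percentile was 95.95 and 85.06 in no.1 and 55.07 and 56.87 in no.2, against 34.16 and 33.69 in control, and the share of probes well above background ranged from 53.4% to 53.5% in no.1 and from 48.4% to 48.6% in no.2, against 44.2% to 45.7% in control. Relative to the spike-in probes, the 75th percentile was 3.8 and 3.64 times the control mean in no.1 and 1.96 and 2.86 times in no.2. Changes below are therefore relative to the bulk of the probes of an array, with a median over all tested genes of -0.12 in no.1 and -0.10 in no.2 against control and -0.01 in no.1 against no.2. The slide held no.1 and no.2 in separate columns of one row and control in the other row, so place on the slide and group cannot be told apart. The targeted gene Plod2 was lower by 2.13 ± 0.34 (SE, log2) in no.1 than in control (limma adjusted p = 0.00613) and by 2.57 ± 0.34 in no.2 (adjusted p = 0.00767), though where its probe lies relative to the deleted part is not given. Of 13 fibroblast markers, 11 or 12 were well above background on every array, and summed to 81200 to 87200 units of signal in no.1 and 64100 to 70900 in no.2, against 49100 to 50400 in control. Once scaled, 2 of 11 tested fibroblast markers were higher and 5 lower in no.1 (median -1.28; 47.8% of all tested genes were called by limma) and 1 was higher and 4 lower in no.2 (median -0.09; 28.3% of all called). Of 7 keratinocyte markers 2 were above background on every array, of 5 endothelial markers 0 to 2, and of 6 immune markers 3 or 4. Of 4 skeletal muscle markers 1 or 2 were above it, and of 5 cartilage and bone markers 2 or 3. Of 3 adipocyte markers 1 was, and of 5 Schwann cell and melanocyte markers 1 to 3 were. Krt5, Krt14, Cdh5 and Ptprc, which define keratinocytes, endothelium and leukocytes, were not above background on any array. Nor was the fibroblast marker Lum (1.13 to 1.22 units). The keratinocyte-list genes Trp63 (325 to 814 units) and Krt10 (41.5 to 163) were above it on all 6. The same held for the immune-list genes Itgam (1160 to 2450), Cd3e (43.3 to 73.7) and Cd68 (12.8 to 51.9). The endothelial Pecam1 (2.77 to 9.66) was above it on 5. From the other lists, Acta1 (515 to 2050), Col2a1 (91 to 514), Sox9 (11.5 to 39.2), Fabp4 (99.1 to 151) and Mitf (36.2 to 68.9) were above it on all 6. Summed unscaled signals of the keratinocyte markers were 825 to 987 in no.1 and 551 to 658 in no.2, against 374 to 396 in control, and those of the immune markers were 2550 to 2560 in no.1 and 1580 to 1800 in no.2, against 1250 to 1350 in control. Once scaled, 0 of 2 tested keratinocyte markers were called in either comparison and 1 of 3 immune markers was lower in both; their part in the results was not tested.

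By the probe of highest mean of each gene, Cyp1b1 was the one of the 8 that stood far higher than control after tamoxifen. It did so in both no.1 and no.2. Another Esr1 probe, A_65_P17231, also rose in both, from below background in control, as given below. Of the 6 genes tested, 2 passed the test in no.1 (Cyp1b1 higher, Esr1 lower), where 47.8% of all tested genes did (21.4% higher and 26.4% lower). In no.2, 3 passed (Cyp1b1 higher, Esr1 and Tiparp lower), against 28.3% of all tested genes (12.1% higher and 16.2% lower). The test was limma's moderated test at a Benjamini-Hochberg adjusted p under 0.05 over all 23058 genes, on 2 arrays a group. Both comparisons share the control arrays. Counts this small beside such backgrounds do not set the 8 genes apart from the rest of the array.

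**Figure D1:**
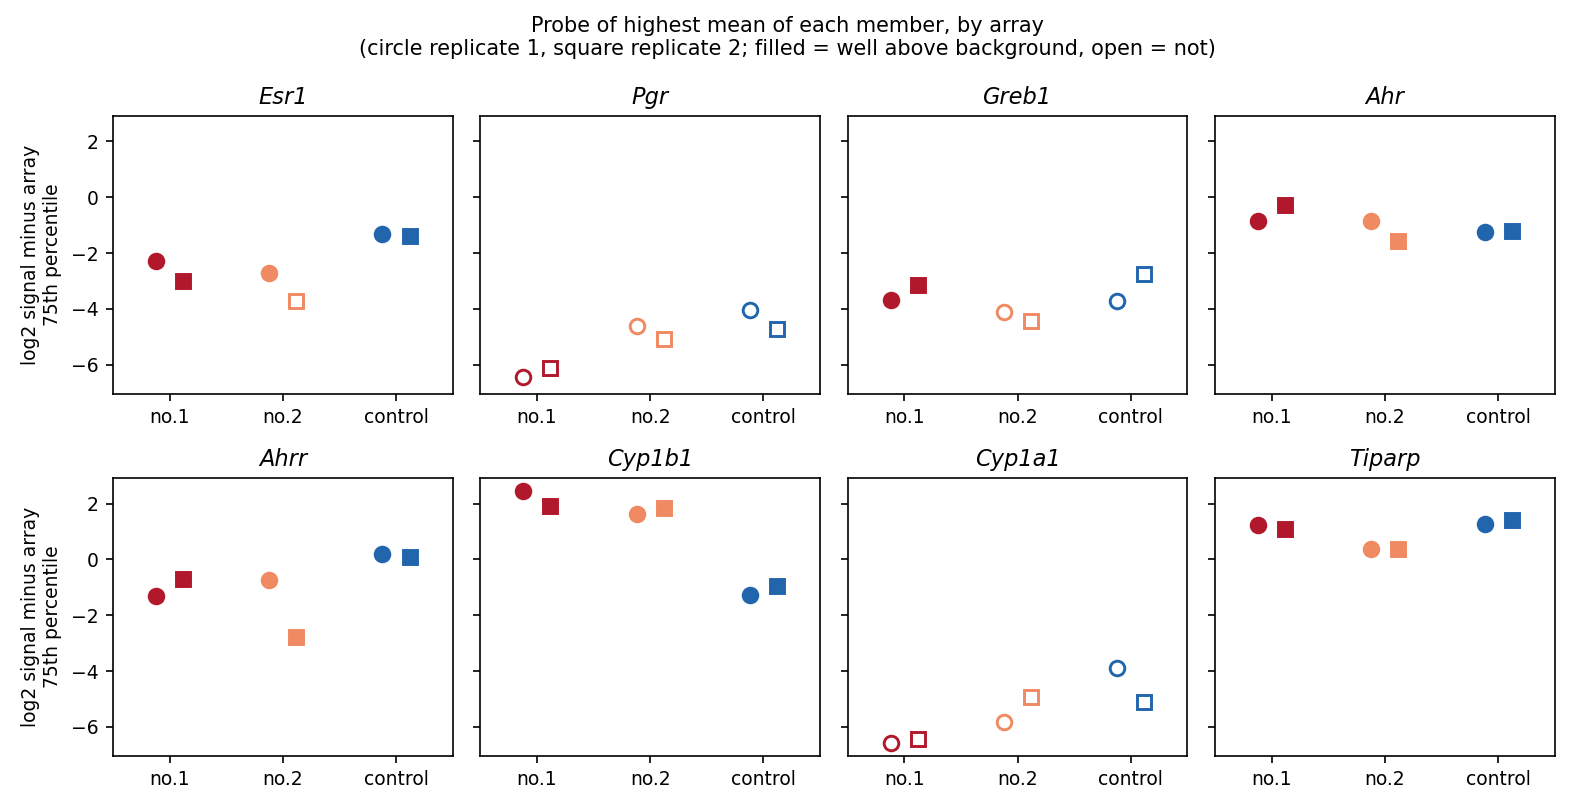
Log2 signal minus the array's 75th percentile (vertical axis) of the brightest probe of each of the 8 genes, for the no.1, no.2 and control groups; circles are replicate 1, squares replicate 2, and open symbols are not well above background. Cyp1b1 lies between 1.62 and 2.45 on the no.1 and no.2 arrays and at -1.26 and -0.96 on the control arrays, while Pgr and Cyp1a1 are open on all 6 arrays; levels of different probes are not comparable.

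Cyp1b1, the member of its enzyme family that is typical of mesenchymal cells, had processed signals of 524 and 321 in no.1 cells and 169 and 205 in no.2 cells, against 14.3 and 17.3 in control cells, with a scanner error between 1.81 and 52.4 depending on the array. Every array of no.1 and no.2 was higher than every control array, and the groups did not overlap before or after scaling. On the scaled log2 axis it averaged 2.18 ± 0.38 in no.1 and 1.73 ± 0.16 in no.2, against -1.11 ± 0.21 in control (SD, n = 2 each). The difference from control was 3.29 ± 0.26 in no.1 (SE; 9.8-fold higher, limma adjusted p = 0.00134) and 2.84 ± 0.26 in no.2 (7.17-fold higher, adjusted p = 0.00298). By size this was the 86th highest of 23058 log2 fold changes in no.1 and the 131st in no.2. Cyp1b1 stayed past the threshold and on the higher side in both comparisons under all 17 alternatives, from 1.93 to 5.19 in no.1 and from 1.37 to 4.09 in no.2. It has 1 probe on the array, so no other probe checks it. In bulk RNA such as this, more cells of a kind and more RNA per cell cannot be told apart.

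Cyp1a1, the sister enzyme whose induction is the usual sign of AhR activation, was not well above background on any array. Its signal was 1.00 and 0.971 in no.1 and 0.968 and 1.86 in no.2, against 2.28 and 0.969 in control. Its 1 probe thus sat at the floor of the scanner's scale in all 3 groups, and a change below that floor was not detectable.

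Tiparp had signals of 226 and 182 in no.1 and 71 and 73.9 in no.2, against 81.8 and 89.4 in control, all above background. Once scaled, its level was 1.17 ± 0.098 in no.1 and 0.37 ± 0.0073 in no.2, against 1.33 ± 0.10 in control (SD, n = 2 each). In no.2 it was lower than in control by 0.96 ± 0.19 (SE, log2; limma adjusted p = 0.0183), and every no.2 array was below every control array. That call was lost in 4 of 17 alternatives, among them those with the control arrays averaged into 1 sample or with either control array left out. In 1 more, scaling to spike-ins, the side turned and the difference was 0.28. In no.1 the difference from control was -0.16 ± 0.19 (adjusted p = 0.494), and it was 0.27 with arrays scaled to their median, 0.19 after normexp background correction, and 1.73 (adjusted p = 0.00134) with spike-in scaling, where the median of all genes was 1.78.

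Ahr, the receptor itself, had signals of 53.4 and 70.8 in no.1 and 30.2 and 19.2 in no.2, against 14.3 and 14.7 in control. After scaling these became -0.85 and -0.26 in no.1 and -0.86 and -1.57 in no.2, against -1.26 and -1.20 in control, so that no.1 lay above control on both arrays and no.2 overlapped it. Neither difference passed the test: no.1 exceeded control by 0.67 ± 0.32 (SE; limma adjusted p = 0.125), and no.2 by 0.01 ± 0.32 (adjusted p = 0.979). The no.1 difference did pass with the arrays scaled to their median (1.11, adjusted p = 0.0198, where all genes had a median of 0.32) or to spike-ins (2.57, adjusted p = 0.000328), and the no.2 difference with spike-ins (1.26, adjusted p = 0.00808, where all genes had a median of 1.14).

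Ahrr, whose promoter window holds 3 of the core motifs above, was measured by 1 of its 2 probes, the other never being above background (0.926 to 2.08 units). It read 38.7 and 51.9 units in no.1 and 32.7 and 8.21 in no.2, against 39 and 35.9 in control. Relative to the array, both no.1 levels (-1.31 and -0.71) and both no.2 levels (-0.75 and -2.79) were below both control levels (0.19 and 0.09). The no.2 arrays were far apart: only 0.436% of 20186 genes above background on both differed by as much. The differences from control, -1.15 ± 0.64 in no.1 (SE; limma adjusted p = 0.178) and -1.91 ± 0.64 in no.2 (adjusted p = 0.0684), did not pass the test. Without no.2 replicate 1 the no.2 value was -2.93 (adjusted p = 0.0138), and with spike-in scaling the no.1 value was 0.74, the 1 of 17 alternatives in which its side turned. The no.1 difference passed in 4 alternatives, after normexp (adjusted p = 0.0299) and, with an adjusted p of 0.0242, in a fit of only no.1 and control or without either no.2 array. The no.2 difference was below 0 in all 17 alternatives, from -2.93 to -0.66, and passed in 3 of them.

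The estrogen receptor gene Esr1 was dim and its probes disagreed. It has 6 probes, 2 on each of 3 transcript records, and on each record 1 probe was above background on some array and the other on none. The brightest probe, A_55_P2030883, gave 19.5 and 10.7 in no.1 and 8.34 and 4.31 in no.2, against 13.7 and 13 in control; the 4.31 of no.2 replicate 2 was not well above background. Its level relative to the array was below control on all 4 arrays. The difference was -1.30 ± 0.39 in no.1 (SE; 2.46-fold lower, limma adjusted p = 0.0373) and -1.87 ± 0.39 in no.2 (3.67-fold lower, adjusted p = 0.0214). These calls were fragile: the no.1 call was lost in 10 of 16 alternatives and turned to 0.60 with spike-in scaling, and the no.2 call was lost in 6, among them the fit with the control arrays averaged (adjusted p = 0.113 in no.1 and 0.0846 in no.2).

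The probe A_65_P17231 of the same gene went the other way. Its signal was 19.9 and 20.2 in no.1 and 9.58 and 11.6 in no.2, against 0.988 and 1.03 in control, where it was not well above background. A probe that is below background in a whole group has only a bound there, taken from the lowest signal that counts as well above background on each array. By that bound it was at least 1.66-fold higher in no.1 (means -2.17 in no.1 and -5.07 in control; limma adjusted p = 0.000895 in a fit of each probe on its own) and at least 1.41-fold higher in no.2 (mean -2.41 in no.2; adjusted p = 0.00184). In that fit 46.6% of 29679 probes were called in no.1 (22% higher, 24.6% lower) and 26.7% in no.2 (11.9% higher, 14.7% lower). Averaging or leaving out control arrays left these calls past the threshold, but after normexp, whose offset of 50 exceeds these signals, the differences were -0.25 and -0.04.

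The probe A_52_P237077 was well above background in no.1 (6.03 and 6.45) but not in no.2 (1.76 and 2.41) or control (0.973 and 0.974), and passed the test in no.1 against control (adjusted p = 0.00807, limma), with no bound above 1. The remaining 3 Esr1 probes read 0.924 to 2.81 on all arrays. Esr1 thus counts as lower by its brightest probe and as higher by A_65_P17231 in both comparisons, so that its direction depends on the probe. A_52_P237077 was tested only because it was above background in no.1 and, with no bound above 1, gives no direction. With the mean over its 6 probes the difference was -0.13 in no.1 and -0.02 in no.2.

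**Figure D2:**
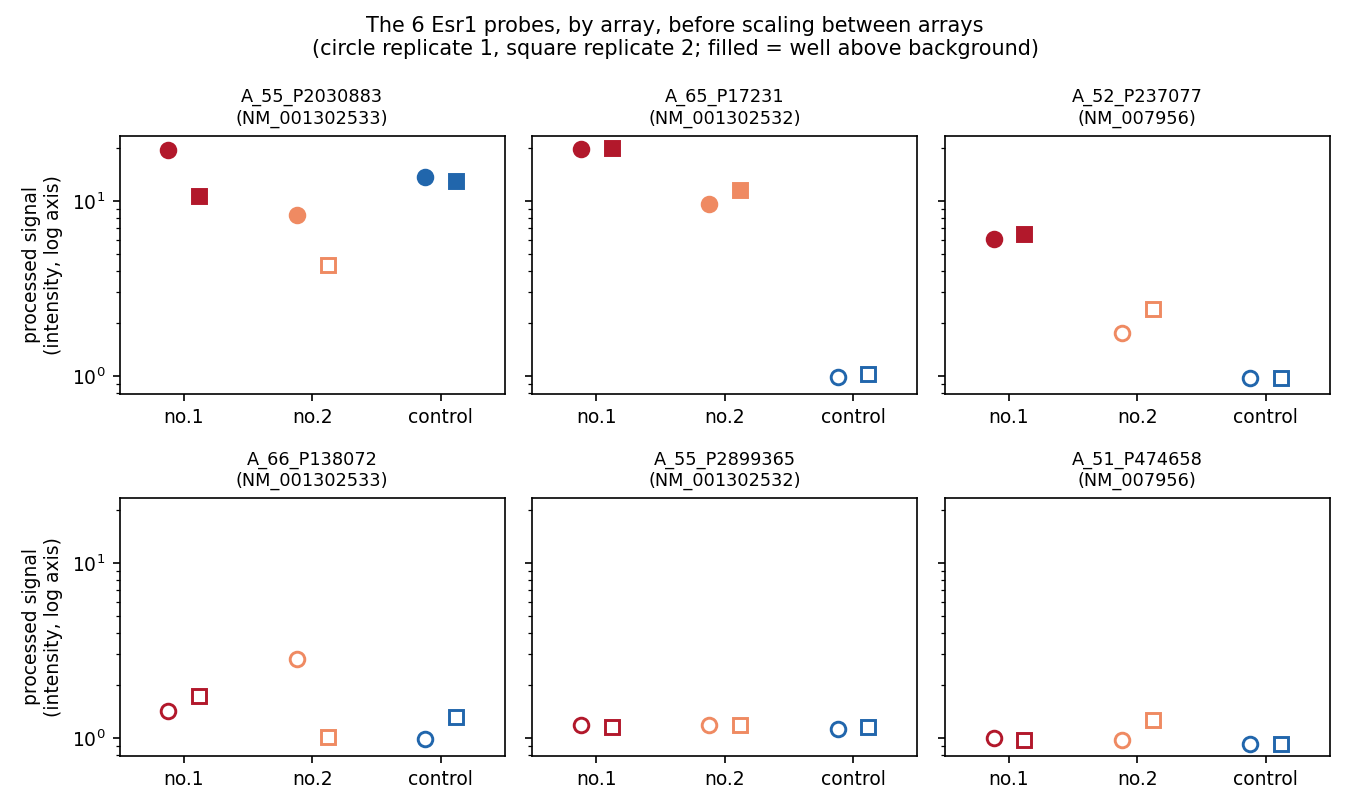
Processed signal in intensity units on a log axis, before scaling between arrays, of the 6 Esr1 probes with their RefSeq transcript records, for no.1, no.2 and control; circles are replicate 1, squares replicate 2, and open symbols are not well above background. A_55_P2030883 is filled in control (13.7 and 13), while A_65_P17231 is open there (0.988 and 1.03) and filled on all 4 arrays of no.1 and no.2; levels of different probes are not comparable.

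The 2 target genes of the estrogen receptor gave little signal. Pgr, the progesterone receptor, read 1.05 to 2.26 units with both probes on all 6 arrays and was never above background. Greb1, a cofactor of the receptor, was well above background with 1 of its 2 probes in no.1 (7.48 and 9.56) but not in no.2 (3.16 and 2.64) or in control (2.62 and 5.01). Against control it did not pass the test in no.1 (limma adjusted p = 0.689) or no.2 (adjusted p = 0.0789), and no bound above 1 could be given. Between no.1 and no.2 it did not pass either (means -3.42 in no.1 and -4.27 in no.2, limma adjusted p = 0.313). The bound from these group means was 1.11-fold higher in no.1, whose 2 arrays stood at -3.68 and -3.15, so it need not hold for each array. Greb1 was tested only because it was above background in no.1. Its other probe read 1.09 to 1.14.

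Between no.1 and no.2, the comparison that the series names, 0 of the 6 tested genes passed, as did 0 of 23058 genes (0%). Without adjustment for multiple tests, limma gave 3824 genes below 0.05, of which Tiparp was 1 (unadjusted p = 0.00539). Cyp1b1 was higher in no.1 by 0.45 ± 0.26 (SE, log2; limma adjusted p = 0.396), Ahr by 0.66 ± 0.32 (adjusted p = 0.338) and Tiparp by 0.80 ± 0.19 (adjusted p = 0.282). The no.1 arrays lay above the no.2 arrays without overlap for all 3 of these and for Greb1, which was below background in no.2. The share of all genes that separated in this way was not counted. Tiparp in no.1 against control separated as well, at -0.16 ± 0.19 (limma adjusted p = 0.494), so separation of 2 against 2 arrays says little. Ahrr differed by 0.76 ± 0.64 (adjusted p = 0.542) and Esr1 by 0.58 ± 0.39 (adjusted p = 0.457), with overlapping arrays. Between arrays of the same replicate number Esr1 was higher in no.1 in both pairs (-2.30 in no.1 and -2.72 in no.2 for replicate 1, -2.99 in no.1 and -3.72 in no.2 for replicate 2), and Ahrr was higher in no.1 only for replicate 2. The fitted differences of Cyp1b1, Ahr, Tiparp, Ahrr and Esr1 were above 0, between 0.45 and 0.80, where 49% of all genes were. Greb1 was tested only because it was above background in no.1, so its side was set by the filter and is not counted. The sign of Esr1 turned under 2 alternatives (-0.16 after normexp, -0.11 with the mean over probes) and that of Ahrr without no.2 replicate 2 (-0.26). At 2 arrays a group, no difference between medium with and without tamoxifen was detected for these genes, which does not show that they were alike.

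**Figure D3:**
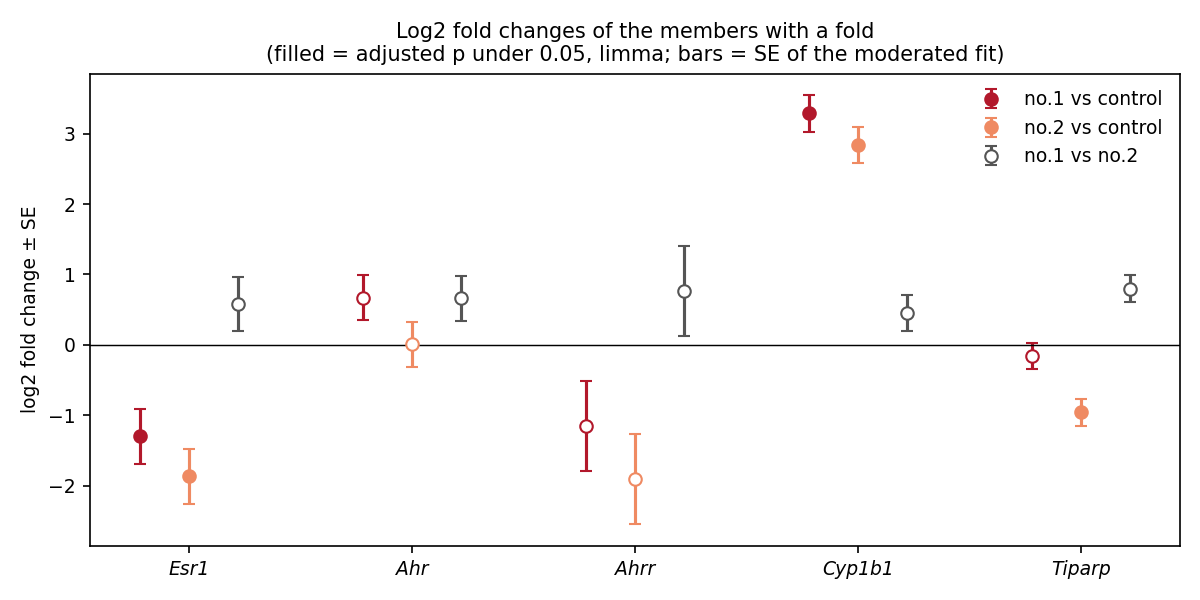
Log2 fold change with the SE of limma's fit (bars) for the 5 genes for which a fold can be given, in no.1 against control, no.2 against control and no.1 against no.2; filled symbols have an adjusted p under 0.05. Cyp1b1 stands at 3.29 and 2.84 against control, Esr1 (brightest probe) at -1.30 and -1.87, and all 5 differences between no.1 and no.2 are open symbols between 0.45 and 0.80.

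How the signal was scaled moved every one of these genes, since the arrays of no.1 and no.2 were brighter as a whole. Scaled to spike-ins, 18845 genes were called higher and 442 lower in no.1 against control, where the 75th percentile gave 4940 and 6080. In no.2 the spike-ins gave 14803 and 571, against 2790 and 3727. Cyp1b1 exceeded the median of all genes in each of these settings. Esr1, Ahrr and Tiparp changed side in no.1 under spike-in scaling, yet their values there (0.60, 0.74 and 1.73) were below the median of all genes (1.78). Scaled to the median probe, 7564 genes were called higher and 3295 lower in no.1, and 4839 and 2175 in no.2. Quantile normalization gave 5982 and 5029 in no.1 and 3745 and 3106 in no.2.

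**Figure D4:**
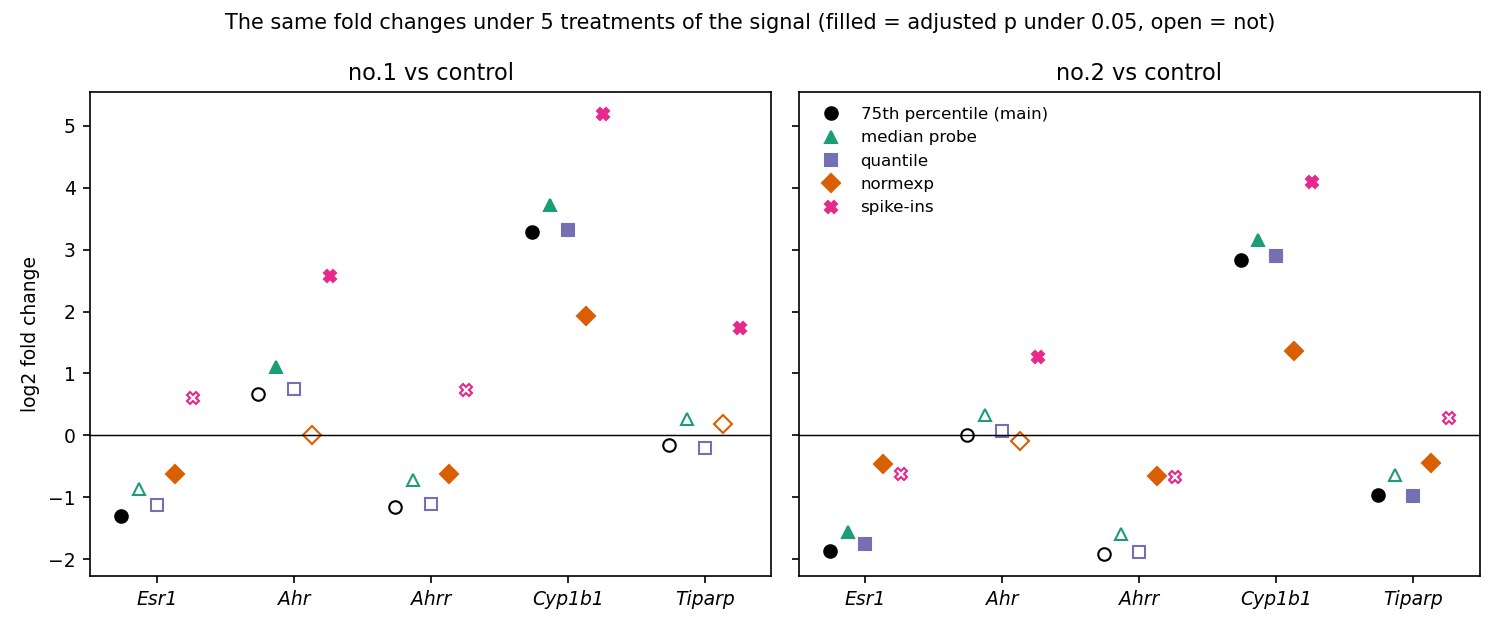
Log2 fold change of the same 5 genes in no.1 against control (left) and no.2 against control (right) under 5 treatments of the signal; filled symbols have a limma adjusted p under 0.05. Cyp1b1 is filled and positive throughout, from 1.93 to 5.19 in no.1 and from 1.37 to 4.09 in no.2, and Esr1 in no.1 is open in 3 of the 5 settings.

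The profile of each gene above background on all 6 arrays was set against those of 12058 other named genes, each centred on its own mean, by root-mean-square distance in log2 units. Nearest to Cyp1b1 were St3gal5, a sialyltransferase, at 0.11 and Gata3, a transcription factor that works with the estrogen receptor in mammary cells, at 0.17, where the median over all genes was 1.53. Nearest to Tiparp were Tatdn1 (0.089) and Akap17b (0.11), with a median of 0.563. Ahr had Cd80, a costimulatory ligand, at 0.13 and Ano3, an anoctamin, at 0.14, with a median of 0.56. Ahrr had the uridine phosphorylase gene Upp1 at 0.18 and Grem1, a BMP antagonist, at 0.29, with a median of 1.03. These are descriptions over 6 arrays that share their scaling, with no test.

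Among other genes of the estrogen receptor family and its coregulators, 16 of 19 were tested. In no.1 against control 6 were higher and 1 lower, and in no.2 5 were higher and 1 lower. Of all tested genes, limma called 47.8% in no.1 (21.4% higher, 26.4% lower) and 28.3% in no.2 (12.1% higher, 16.2% lower). The list medians were 0.36 and 0.31, where all genes had -0.12 and -0.10. In each comparison 3 of the 16 were below background in a whole group and have only a bound. With only genes above background on all 6 arrays tested, 4 of 13 were higher and 0 lower in both comparisons. Of the 17788 genes tested in that way, 4044 were higher and 5686 lower in no.1, and 2378 higher and 3641 lower in no.2. Gata3 was higher by 3.16 ± 0.22 in no.1 (SE; limma adjusted p = 0.000981) and 2.94 ± 0.22 in no.2 (adjusted p = 0.00188). Ncoa1, a coactivator, was higher by 1.07 and 1.08 (adjusted p = 0.0153 and 0.0248), and the corepressor Ncor1 by 1.06 and 0.68. Ppargc1b, a coactivator of the estrogen-related receptors, was below background in control and at least 2.79-fold higher in no.1 (adjusted p = 0.00448) and at least 2.41-fold higher in no.2 (adjusted p = 0.0121), bounds that equal its measured folds because its control signals exceeded the lowest ones well above background. Normexp ended both calls (adjusted p = 0.349 and 0.816), and with it the no.2 call was lost in 5 of 16 alternatives. Esr2, the second estrogen receptor, named here for its role, had log2 differences of 0.24 ± 0.21 in no.1, with an adjusted p of 0.371, and of 0.10 ± 0.21 in no.2, with one of 0.731.

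Of 25 tested estrogen-responsive genes beyond those 8, 6 were higher and 7 lower in no.1, and 4 higher and 5 lower in no.2. Among all tested genes, limma called 21.4% higher and 26.4% lower in no.1, and 12.1% higher and 16.2% lower in no.2. The list medians were -0.20 and -0.23, where all genes had -0.12 and -0.10. The genes of this list thus moved both ways in similar number. Those named next, taken by lowest p in no.1, were all on the lower side. Igfbp4, a binding protein of insulin-like growth factors, was lower by 3.71 ± 0.23 in no.1 (SE; limma adjusted p = 0.000673) and by 3.44 ± 0.23 in no.2 (adjusted p = 0.00119). Stc2, the glycoprotein stanniocalcin, was lower by 3.24 and 2.68, and the lysosomal protease gene Ctsd by 2.20 and 1.33. Serpina3n, a protease inhibitor from a cluster of close paralogs, was below background in no.1 and no.2 and at least 2.88-fold lower in no.1 than in control (adjusted p = 0.0016) and at least 1.83-fold lower in no.2 (adjusted p = 0.00566).

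All 8 genes of the AhR core complex were tested, with 2 higher and 2 lower in no.1 and 0 called in no.2 (at an adjusted p under 0.05 by limma), where 47.8% of all tested genes were called in no.1 and 28.3% in no.2. In no.1 Arnt2, a paralog of the AhR partner, was lower by 1.30 ± 0.25 (SE; adjusted p = 0.009). The cochaperone gene Ptges3 was higher by 1.09 ± 0.26 (adjusted p = 0.0171) and the chaperone gene Hsp90ab1 by 0.60 ± 0.19 (adjusted p = 0.0452). In no.2 Arnt2 had -0.55, Ptges3 0.55 and Hsp90ab1 0.55. Arnt itself, named here for its role, had 0.32 in no.1 and 0.46 in no.2, neither past the test.

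In the rest of the AhR gene battery, 13 of 18 listed genes were tested, with 1 higher and 6 lower in no.1, and 1 higher and 4 lower in no.2. Among all tested genes, too, more were lower than higher, 26.4% against 21.4% in no.1 and 16.2% against 12.1% in no.2. The list median was -0.71 in no.1; that of no.2 was -1.06, or -0.86 with genes below background held at their bound. All tested genes had medians of -0.12 in no.1 and -0.10 in no.2. Gsta2, a glutathione transferase with close paralogs, had signals of 2.91 and 1.46 in no.1 and 1.05 and 1.01 in no.2, against 61.4 and 55.7 in control, which makes it at least 32.2-fold lower in no.1 (limma adjusted p = 0.000428) and at least 20.4-fold lower in no.2 (adjusted p = 0.000561). Nqo1, a quinone reductase, named here for its role, was lower by 1.15 ± 0.21 in no.1 and 1.57 ± 0.21 in no.2. Ugt1a6b, a glucuronosyltransferase that shares exons with its neighbours, was lower by 1.51 in no.1 and 1.06 in no.2, a no.2 call that was lost in 10 of 17 alternatives and turned in 1. Fgf21, a hormone, passed on the lower side in no.1 (adjusted p = 0.0051), where 1 of the 2 arrays was above background, and had -2.46 in no.2 (adjusted p = 0.0651), which passed in 5 of 16 alternatives. The gene on the higher side was Lpcat2, a phospholipid acyltransferase, below background in control and at least 2.47-fold higher in no.1 (adjusted p = 0.00469) and at least 1.94-fold higher in no.2 (adjusted p = 0.0135). Normexp ended both of its calls (adjusted p = 0.155 and 0.731), and the no.2 call was also lost without control replicate 1 (0.0549) or no.2 replicate 2 (0.062). With spike-in scaling the list had 9 higher and 3 lower genes in no.1 and 4 and 1 in no.2, its medians (1.18 and 0.18) staying below those of all genes (1.78 and 1.14).

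Of 20 genes of the other xenobiotic receptors PXR and CAR and of drug metabolism and transport, 11 were tested, with 2 higher and 5 lower in no.1 and 0 higher and 2 lower in no.2, where 47.8% of all tested genes were called in no.1 and 28.3% in no.2. The drug exporters Abcb1b and Abcg2 were higher in no.1, by 1.76 ± 0.34 and 1.32 ± 0.30 (SE; limma adjusted p = 0.00986 and 0.0147), and had 0.59 and 0.54 in no.2, where neither passed. With the mean over its probes Abcb1b had 0.62 in no.1 and was no longer called (limma adjusted p = 0.16). Alas1, the rate-limiting enzyme of heme synthesis, was lower by 0.93 in no.1 and 0.68 in no.2. Of 17 alternatives, its no.1 call was lost in 4 and turned in 1, and its no.2 call was lost in 10 and turned in 1. Rxra, the common partner of these receptors, was lower by 0.90 in no.1 and had -0.37 in no.2. Its no.1 call was lost in 8 of 17 alternatives and turned in 1. With spike-in scaling the list had 9 higher and 0 lower genes in no.1.

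Tamoxifen also binds the antiestrogen binding site, formed by the sterol enzymes Ebp and Dhcr7. Ebp was lower in no.1 by 0.74 ± 0.19 (SE; limma adjusted p = 0.0233) and had -0.57 in no.2 (adjusted p = 0.0722), and scaling to spike-ins turned both values positive (1.15 and 0.68). Dhcr7 had 0.57 in no.1 and 1.30 in no.2 (adjusted p = 0.0588), neither past the test, though the no.2 value passed in 5 of 17 alternatives, from the fit with spike-ins (0.00745) to that for genes above background on all 6 arrays (0.0371). In the cholesterol pathway that holds both enzymes, 17 of 22 genes were higher and 1 lower in no.1, and 18 higher and 0 lower in no.2, with medians of 1.70 and 2.12. Of all tested genes, limma called 21.4% higher and 26.4% lower in no.1, and 12.1% higher and 16.2% lower in no.2. Idi1, an isomerase of isoprenoid units, was higher by 4.78 in no.1 and 4.30 in no.2, and Sqle, which oxidises squalene, by 2.79 in no.1 and 2.81 in no.2. No gene of any of these lists passed the test in no.1 against no.2.

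The list counts moved with the scaling and with the weight of the control arrays. With spike-in scaling, where most genes of the array were higher, the estrogen receptor family had 16 higher genes in no.1 (0 lower) and 14 higher in no.2 (0 lower). The other estrogen-responsive genes then had 16 higher and 3 lower for no.1, 12 higher and 3 lower for no.2, and the AhR core complex had 7 higher for no.1, 5 higher for no.2 and 0 lower for both. Arnt2, Nqo1, Ugt1a6b, Alas1 and Rxra, lower above in no.1, had positive values there. With the control arrays averaged into 1 sample, the AhR battery had 1 higher and 4 lower calls for no.1 and 1 of each for no.2, and the estrogen-responsive genes had 3 higher and 4 lower for no.1, 1 higher and 3 lower for no.2. The estrogen receptor family then had 2 higher calls in no.1 and 1 in no.2, and the cholesterol genes 14 and 11, with 0 lower in either list. In that fit the calls of Ncoa1, Ncor1, Nqo1 and Alas1 were lost in both comparisons, those of Ptges3, Hsp90ab1, Abcg2, Rxra and Ebp in no.1, and those of Ppargc1b, Ctsd and Ugt1a6b in no.2.

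**Figure D5:**
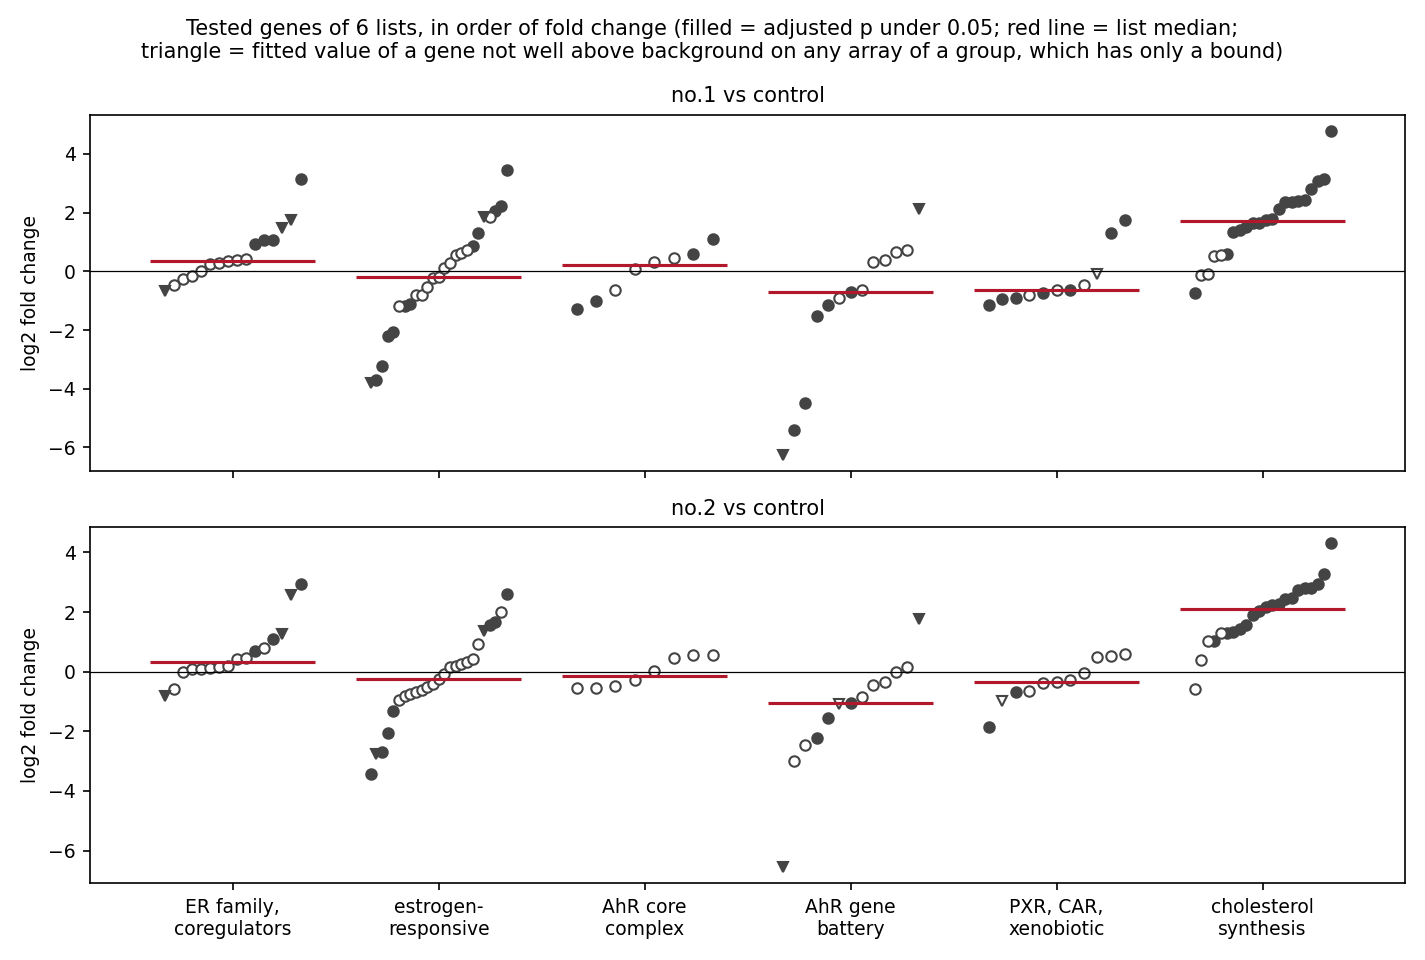
Log2 fold change of each tested gene of 6 lists in no.1 against control (top) and no.2 against control (bottom), in order within a list; filled symbols have a limma adjusted p under 0.05, red lines are list medians, and triangles are genes below background in a whole group, whose plotted value is a fitted one. The cholesterol genes lie mostly above 0 (medians 1.70 and 2.12). Of the 13 AhR battery genes, 8 lie below 0 in no.1 and 11 in no.2 (medians -0.71 and -1.06, the latter -0.86 with genes held at their bound). All tested genes had medians of -0.12 and -0.10.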

How the data were processed

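Labelling was with Cy3 after Low Input Quick Amp amplification, per the labels' protocols. The deposited scanner files hold intensity values; Agilent Feature Extraction made them in version 12.1.1.1, per the file headers, while the submitters' processing notes name 9.5.1.1. The processed signal in them is background-corrected within an array and not scaled between arrays, per the file headers. The deposited value table of intensity is on a linear scale, and at least 99.9% of each column matched the processed signal after quantile normalization to within 1% (column median 5.16). It was used as an alternative. All 6 arrays lay on 1 slide, scanned 1 time, and their number limits the precision.

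Spots of a probe were averaged as log2 values without outlier flags, and each array was scaled to its 75th percentile. Accessions were matched to RefSeq symbols (GRCm38.p6, used for names because the files' build is mm9), which named 32994 of 56605 probes. A gene took its probe of highest mean and was tested if, in at least 1 group, both arrays had this probe well above background. No spot was saturated. Fits used limma 3.58.1 in R 4.3.3 over all 6 arrays (3 residual degrees of freedom), with Benjamini-Hochberg adjustment at 0.05, and were tested on simulated data. Promoters were searched in Python 3.11.15. The scanner files as used hold no mean signal, so normexp (offset 50) was run on the median signal and background.

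The 8 genes, the lists, the tests and the alternatives were chosen with earlier results of these data known. The rule named all 8 genes with every probe, Plod2, up to 4 called genes of each list in order of p in no.1, and the 2 nearest profiles; some list genes are not reported here. Genes named for their role were chosen after their values were seen. Alternatives were other scalings, background correction, filters, probe rules, controls averaged, fits of 2 groups, the replicate block, each array left out, and, chosen after seeing the data, each probe on its own and the same alternatives for the lists.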

Additional observations from a re-analysis of the deposited data

How the results depend on the processing

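Cyp1b1 kept its direction and its side of the threshold against control in no.1 and no.2 in all 17 alternatives. The number of genes called in no.1 against control was 11020, and became 19287 with spike-in scaling, 24873 with no filter on dim probes, 4845 with the control arrays averaged, and 4998 to 12053 with 1 array left out, lowest without control replicate 2 (4998), control replicate 1 (5385) and no.1 replicate 1 (5833). In no.2 against control 6517 became 15374, 16476 and 1246 in the same settings, and 1298 to 6360 with 1 array left out, lowest without control replicate 2 (1298), control replicate 1 (1710) and no.2 replicate 2 (3010). In no.1 against no.2, 0 became 8296 with no filter, and 0 to 117 with 1 array left out, 117 without no.1 replicate 2. Of the 6 tested genes, 2 were called in no.1 against control; this was 1 with quantile normalization, the deposited value table, a filter for all 6 arrays above background (4 genes then tested) or averaged controls, 4 with spike-ins and 4 with normexp, and 1 to 3 with 1 array left out (1 without either control array or either no.1 array, 3 without either no.2 array). In no.2 against control, 3 (1 higher, 2 lower) became 2 with spike-ins (2 higher, 0 lower), 2 with median scaling or the mean over probes (1 higher, 1 lower), 5 with normexp, 1 with averaged controls, and 1 to 4 with 1 array left out (1 without either control array). In no.1 against no.2, 0 became 2 with no filter, which tests all 8 genes: Tiparp (adjusted p = 0.0422) and Pgr, which was never above background.

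Directions turned as follows, and the cause was not tested except where given. With spike-ins, in no.1 against control: Esr1 0.60, Ahrr 0.74, Tiparp 1.73, Alas1 0.96, Arnt2 0.59, Ebp 1.15, Nqo1 0.75, Rxra 1.00 and Ugt1a6b 0.39; and in no.2: Tiparp 0.28, Alas1 0.56, Arnt2 0.69, Ebp 0.68, Rxra 0.88 and Ugt1a6b 0.18. Spike-in scaling shifts every gene of an array by 1 amount. With median scaling Tiparp had 0.27 in no.1. Normexp adds 50 to each signal, which exceeds those of Esr1: its probe A_52_P237077 then had -0.56 in no.1 and -0.28 in no.2 against control and -0.28 in no.1 against no.2, its probe A_65_P17231 had -0.25, -0.04 and -0.20, and its brightest probe had -0.16 in no.1 against no.2. Normexp also gave 0.19 for Tiparp in no.1, and -0.09 for Ahr and 0.05 for Rxra in no.2. Quantile normalization and the value table each gave 0.01 for Rxra in no.2. The mean over probes gave -0.11 for Esr1 in no.1 against no.2, and -0.20 for Abcb1b and -0.05 for Esr2 in no.2. With 1 array left out, Ahr in no.2 ranged from -0.34 to 0.36 (-0.02 without control replicate 1), Esr2 in no.2 from -0.05 to 0.26, and Ahrr in no.1 against no.2 from -0.26 to 1.78.

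For Greb1 adjusted p ranged over the alternatives from 0.00256 to 0.912 in no.1 against control, from 0.0465 to 0.651 in no.2 and from 0.0543 to 0.881 in no.1 against no.2. The replicate numbers were not shown to pair the arrays: same-numbered deviations correlated at 0.165 between no.1 and no.2, -0.035 between no.1 and control and -0.017 between no.2 and control. With the replicate block 10572, 6055 and 0 genes were called, and 2, 3 and 0 of the 6. In that fit Hsp90ab1 in no.1 (adjusted p = 0.0729), and Alas1 (0.0679) and Ncor1 (0.0728) in no.2, were no longer called, and Fgf21 (0.0241) and Dhcr7 (0.0366) in no.2 were. The control arrays differed less (robust SD of the difference 0.154) than those of no.1 (0.418) and no.2 (0.386), and whether they hold separate RNA was not tested. Dim signal limits Esr1, Greb1, Pgr and Cyp1a1, for which changes near background could not be measured.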

Other observations

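Some estrogen- and AhR-related genes differed widely between the arrays of 1 group. Among the 8 genes and the listed genes above background on both no.2 arrays, Ramp3, a receptor activity-modifying protein, had signals of 1610 and 113, and Areg, the EGF receptor ligand amphiregulin, had 133 and 11.5. On the scaled log2 axis replicate 1 exceeded replicate 2 by 3.88 for Ramp3, 3.58 for Areg, 2.04 for Ahrr and 1.71 for Krt19, and replicate 2 exceeded replicate 1 for C3 (-1.80). As large a difference was met by 0.0297%, 0.0446%, 0.436%, 0.902% and 0.689% of 20186 genes. In no.1 the widest were Xdh, xanthine dehydrogenase, with 18.9 and 135, and Wnt4 with 7.27 and 32.6. In control the widest, Wnt4, differed by -0.79 on the log2 scale. The genes were chosen after their values were seen, by size of difference, and the file names that carry 24 h and 48 h for these replicates cannot be told apart from other differences between the 2 arrays.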
